A study of Mus musculus with 14 samples.

Results

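A set of 8 genes whose products build or accompany the milk fat globule was followed through sorted mouse mammary cells, in 8 groups of virgin and pregnant mice. They are Btn1a1, Xdh, Plin2, Mfge8, Muc1, Wfdc18, Olah and Aqp5, chosen by name as the array annotation gives it or by an older synonym (Adfp for Plin2, Expi for Wfdc18). All 8 were found, on 12 of 41174 probes, and all 8 passed the filter on dim signals, among 23647 genes tested. Btn1a1, Xdh, Muc1 and Wfdc18 have a pair of probes each, and the brighter one on average stands for the gene unless the other is named.

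A secretory mammary cell packs triglyceride into cytoplasmic lipid droplets, moves them to its apical surface and releases them wrapped in plasma membrane. Plin2 coats the droplet, the transmembrane butyrophilin Btn1a1 and the enzyme xanthine dehydrogenase Xdh join the droplet to the membrane, and the mucin Muc1 and the glycoprotein Mfge8 lie on the globule's outer face. Olah is the thioesterase that releases medium-chain fatty acids from fatty acid synthase, Wfdc18 is a small secreted protein of the whey acidic protein family, and Aqp5 is a water channel of glands.

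The groups were sorted from FVB/N-J wild-type mice, virgin or pregnant, and from virgin L2G85 mice, a luciferase transgenic line on FVB/N. P4 is labelled CD24+CD29hi and enriched for mammary stem cells (MaSC), P5 is labelled as enriched for luminal progenitors, and P6 is CD24lo and labelled as differentiated mammary epithelial cells. The titles give P5 the same CD24+CD29hi gate as P4, so P5 is identified here by its label as luminal progenitors. Each of these populations has 2 arrays in virgin and 2 in pregnant mice, which makes 12 arrays. Lineage-negative GFPhi cells (labelled stem-cell enriched) and GFPlo cells (labelled depleted) of virgin L2G85 mice have 1 array each. The labels used here give neither the stage of pregnancy, nor the age, nor the number of animals behind a sample, nor the promoter of the transgene. Because nothing says that replicates came from separate animals, the p-values cover only how these arrays vary, and that variation may be technical.

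On every array Cy5 carried the sorted cells' RNA and Cy3 a reference RNA from 11 mouse cell lines, so a value is log2 of Cy5 over Cy3, with 0 meaning the level of that reference. A gene was called where limma gave it an adjusted p under 0.05, by the Benjamini-Hochberg method over all genes tested. The arrays were scanned in 3 batches. Scan 3, which held replicate 1 of all 3 pregnant populations, had 111 to 236 saturated Cy5 spots per array against 0 to 15 elsewhere. Scan 1 held only virgin arrays. Virgin P4, P5 and P6 lay on slides 1 and 2, pregnant P4 on slides 3 and 2, and pregnant P5 and P6 on slides 3 and 4. Every comparison of pregnant with virgin arrays of P5 or P6 is thus also one between slides, within scan 2 too. Basal markers were high in P4, where the 10 genes of the list averaged 4.69 to 4.85 in virgin mice against -0.18 to 0.21 in P5. The 14 luminal markers averaged 4.33 to 4.35 in virgin P5 and 1.66 to 1.98 in virgin P4. In P6 it was the 8 fibroblast markers that stood high, at 4.98 to 5.23 in virgin and 3.76 to 5.37 in pregnant mice, against -1.31 to -1.07 in virgin P4, while its luminal markers averaged 0.76 to 1.29 in virgin mice. The marker levels of P6 thus go against its label as differentiated epithelium, and it is called P6 here. Fewer cells of a type and less RNA per cell cannot be told apart in such bulk samples.

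Where members have 2 probes, these were read separately, and the first 30 of their 60 bases show how far they are independent. Positions are on mouse build mm7, as the file headers give it, in the sense of the gene. The Wfdc18 probes lie at chr11:83781154-83781213 and chr11:83781144-83781203 on the plus strand, start 10 bases apart and share 50 bases, so that they are nearly one measurement. Capitals mark the 20 bases that both printed stretches hold.
Wfdc18, brighter probe: ACCTAGAATTGCATCCTTGGaagaggaaga
Wfdc18, other probe: tcctccttagACCTAGAATTGCATCCTTGG
The Btn1a1 probes share no end sequence and start 6173 bases apart on the minus strand, at chr13:22829854-22829913 and chr13:22823681-22823740.
Btn1a1, brighter probe: tgttagtgatccaaatcaagcaaatctccc
Btn1a1, other probe: gtctgaactctgtatcttaagttttctatg
The Muc1 probes lie on the plus strand at chr3:89357452-89357511 and chr3:89357590-89357747, and the second covers 158 bases of genome with its 60 bases, so it crosses a gap such as an intron leaves.
Muc1, brighter probe: ctatagcacagtaccattttctaccttctc
Muc1, other probe: ctaccaagaactgaagaggaacatttctgg
Olah and Aqp5, which gave the largest rise and the largest fall among the members, rest on 1 probe each, at chr2:3259569-3259628 on the minus strand and chr15:99579945-99580003 on the plus strand.
Olah, its probe: aagtccagcttttagttcttagaggtcgga
Aqp5, its probe: aggagagagatagatggttcgtcgagtgcc
The Xdh probes lie at chr17:72172548-72172607 and chr17:72181137-72182011, the Plin2 probe at chr4:86060498-86060557 and the Mfge8 probe at chr7:74997005-74997064, all on the minus strand. Exon and UTR positions of this build were not used here.

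RefSeq promoter windows on GRCm38.p6, from 250 bases before to 50 after the start site, were at hand for 6 members (Plin2, Mfge8, Muc1, Wfdc18, Olah and Aqp5). TTCNNNGAA, the motif that STAT5 is known to bind, reads the same on both strands and was in 0 of these 6 windows, while 8.3% of 32851 windows of all genes held it. This says only that these letters are not in those windows.

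In pregnant mice 5 of the 8 genes were higher in P5 (Btn1a1, Xdh, Plin2, Muc1 and Olah) and Aqp5 was lower, while Mfge8 and Wfdc18 did not pass. In P4 Plin2 and Olah were higher and Aqp5 was lower. In P6 limma called 0 of the 8. There Olah, Xdh and Aqp5 had groups that did not overlap, as 30% of all genes did, and the same 3 had an unadjusted p under 0.05, as 7.39% of all genes did. Among all genes 21.4% were called in P5 (10.7% higher and 10.7% lower), 3.75% in P4 (1.49% higher and 2.25% lower) and 0.186% in P6. The median difference of the members was 2.18 in P5, 0.49 in P4 and -0.06 in P6, against 0.04, -0.03 and -0.01 over all genes. Median centring in place of loess raised the median of all genes in P4 by 0.18.

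**Figure D1:**
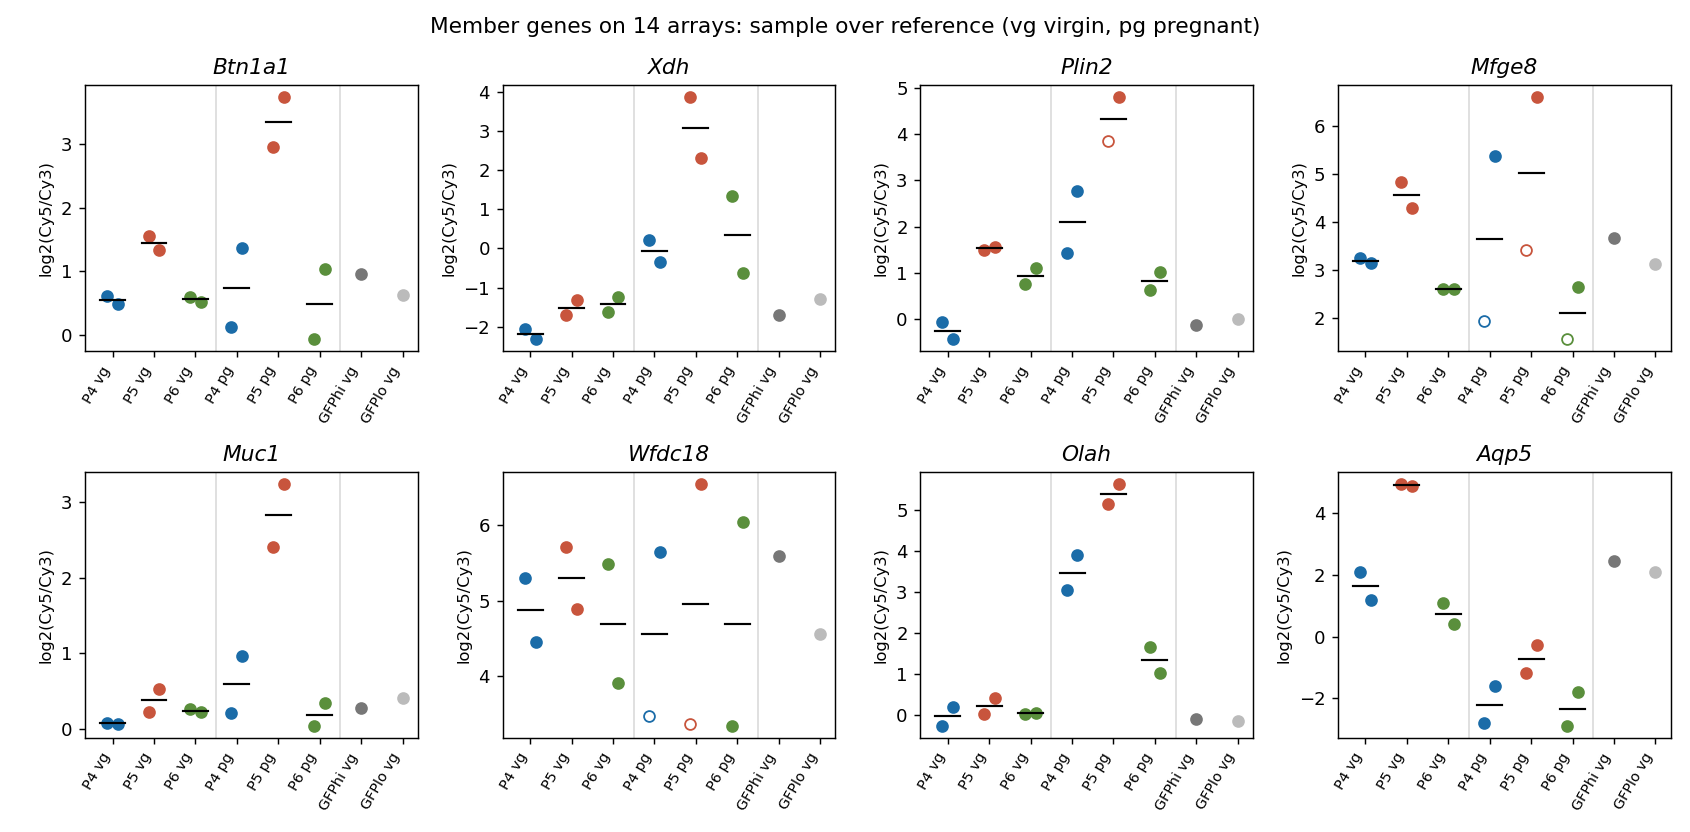
Each panel plots the log2 ratio of sample (Cy5) over reference (Cy3) of 1 gene on all 14 arrays by group; points are arrays, black lines are means of 2 arrays, and open points are spots saturated in Cy5. Btn1a1, Xdh, Plin2, Muc1 and Olah stand highest in pregnant P5, Aqp5 stands highest in virgin P5 and lies below 0 in all pregnant arrays, and the Wfdc18 groups overlap.

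Of the genes that join droplet and membrane, Btn1a1 was highest in P5 in both conditions. Its log2 ratios were 0.61 and 0.49 in virgin P4, 1.55 and 1.33 in virgin P5 and 0.59 and 0.53 in virgin P6. In pregnant mice they were 0.13 and 1.36 in P4, 2.95 and 3.74 in P5 and -0.06 and 1.04 in P6. By this brighter probe only the pregnant P5 arrays stood clear of all others, and the pregnant P4 and P6 arrays spread around their virgin levels. By the other probe both pregnant P4 arrays (1.13 and 2.63) lay above both virgin P4 arrays (0.79 and 0.63). Its ratios in P6 were 0.41 and 0.35 in pregnant and 0.42 and 0.57 in virgin mice. The rise in P5 was 1.90 ± 0.46 (SE; 3.73-fold, adjusted p = 0.0212) and the difference in P4 was 0.20 ± 0.46 (adjusted p = 0.901). The other Btn1a1 probe gave 1.71 ± 0.43 in P5 (adjusted p = 0.025), and it also separated virgin P5 from virgin P4, with P4 lower by 1.90 ± 0.43 (adjusted p = 0.0256), where the brighter probe gave -0.89 (adjusted p = 0.359 in the same fit by probe). Leaving out P5_virgin replicate 1, P5_virgin replicate 2 or P5_pregnant replicate 2 ended the call in P5, with differences from 1.51 to 2.01 and adjusted p from 0.084 to 0.124. It was also lost with local backgrounds kept as given (1.23), with ratios scaled to one spread on all arrays (1.17) and with the scanner's own log ratio (2.06), at adjusted p from 0.0545 to 0.12.

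Xdh, which also serves as the enzyme that makes urate, stayed below the reference in every virgin array. Its ratios were -2.06 and -2.32 in virgin P4, -1.71 and -1.33 in virgin P5 and -1.62 and -1.23 in virgin P6. In pregnant mice it reached 0.23 and -0.35 in P4, 3.87 and 2.30 in P5, and 1.33 and -0.62 in P6. The pregnant arrays lay above the virgin arrays of the same population in all 3 populations. The rise was 4.61 ± 0.65 in P5 (24.4-fold, adjusted p = 0.00178), and the other probe gave 4.27 ± 0.59 (adjusted p = 0.00177). The differences of 2.13 ± 0.65 in P4 (adjusted p = 0.139) and 1.78 ± 0.65 in P6 (adjusted p = 0.536) did not pass. With a replicate block within each condition, they passed, at an adjusted p of 0.00438 and 0.0275. In all 3 pregnant populations the higher Xdh array was the one of scan 3, and within scan 2 alone the differences were 1.97 in P4, 3.63 in P5 and 0.61 in P6. Under median centring the difference in P5 was 3.97 and missed the threshold (adjusted p = 0.0603).

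Plin2, the droplet coat protein, rose in P4 and P5 and not in P6. Its ratios were -0.06 and -0.43 in virgin P4, 1.50 and 1.56 in virgin P5, and 0.77 and 1.11 in virgin P6. In pregnant mice they were 1.44 and 2.76 in P4, 3.86 and 4.80 in P5, and 0.63 and 1.02 in P6. The virgin groups did not overlap, with P5 above P6 and P6 above P4, and pregnant P6 overlapped virgin P6. The rise was 2.34 ± 0.44 in P4 (5.06-fold, adjusted p = 0.0263) and 2.80 ± 0.44 in P5 (6.94-fold, adjusted p = 0.00292), and the difference in P6 was -0.12 ± 0.44 (adjusted p = 0.987). One pregnant P5 array was saturated for Plin2, at a Cy5 intensity of 63088 scanner units, so its ratio of 3.86 is only a lower bound. The call in P4 was lost in 5 of 12 fits with 1 array removed, those without either array of virgin P4, either array of virgin P5 or P4_pregnant replicate 2, with adjusted p up to 0.175. Adipocytes express Plin2 too: the 8 adipocyte markers averaged 2.48 to 4.25 in pregnant P4 against 1.56 to 1.73 in virgin P4, 1 of 8 (Lep) rose there and none of the 8 was below background on both arrays. Their part in the result was not tested.

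Mfge8, the lactadherin of the globule's outer face, was bright in every group and its ratios could not be ordered with pregnancy. They were 3.24 and 3.16 in virgin P4, 4.85 and 4.29 in virgin P5, and 2.62 and 2.61 in virgin P6, and the 3 groups did not overlap. In pregnant mice the arrays of one group lay far apart, at 1.93 and 5.38 in P4, 3.43 and 6.61 in P5 and 1.56 and 2.65 in P6. The lower array was in each case the one of scan 3, on which the Mfge8 spot was saturated at 64386 scanner units. Pregnancy differences were 0.46 ± 1.19 in P4, 0.45 ± 1.19 in P5 and -0.51 ± 1.19 in P6 (adjusted p = 0.913, 0.843 and 0.976). Within scan 2 they were 2.23, 2.32 and 0.04. Cy5 alone gave 0.47, -0.41 and 0.05 on the same arrays, and the Cy3 signal of this probe ran against its Cy5 signal, from 5597 to 19595 scanner units with a correlation of -0.69 over 14 arrays that share the reference.

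Muc1, a heavily glycosylated mucin of the apical membrane, rose in P5. Its ratios ran from 0.07 to 0.52 over the 6 virgin wild-type arrays. In pregnant mice they were 0.21 and 0.97 in P4, 2.41 and 3.25 in P5, and 0.04 and 0.33 in P6. Pregnant P5 stood apart from all other arrays, and pregnant P4 lay above virgin P4. The rise in P5 was 2.45 ± 0.31 (5.48-fold, adjusted p = 0.00105), against 0.52 ± 0.31 in P4 (adjusted p = 0.506) and -0.05 ± 0.31 in P6 (adjusted p = 0.989). The other Muc1 probe, not well above background on either virgin P4 array, gave 3.36 ± 0.45 in P5 (adjusted p = 0.00157) and 1.46 ± 0.45 in P4 (adjusted p = 0.154).

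Olah was the member with the largest rise. It was not well above background on any array of virgin P4, virgin P6, GFPhi or GFPlo, and virgin P5 was just above it, at Cy5 intensities of 58.4 and 86.9 scanner units. In pregnant mice its ratios were 3.05 and 3.89 in P4, 5.16 and 5.64 in P5, and 1.66 and 1.04 in P6. The 3 pregnant groups did not overlap each other or any virgin group. Pregnant P4 was above virgin P4 by 3.50 ± 0.34 (adjusted p = 0.00221). Pregnant P5 was above virgin P5 by 5.17 ± 0.34 (adjusted p = 4.13e-05), and pregnant P6 lay above virgin P6 by 1.31 ± 0.34 (adjusted p = 0.258). No fold is given, since the virgin level was at or just above background and the size of the rise depended on the scale. Cy5 alone gave 4.57 in P4 and 1.68 in P6, and a larger rise than the ratio in P5 as well (below). The scanner software's own log ratio, made from background-subtracted and dye-normalized signals, put the 3 rises at 3.63, 3.54 and 3.83 in P4, P5 and P6 (adjusted p = 0.103, 0.0291 and 0.247). The deposited series table gave the same sizes. The order of the Olah rises by population thus differed between those values and the loess ratios, and the cause was not tested.

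Aqp5 ran the other way. Its ratios were 2.08 and 1.18 in virgin P4, 4.95 and 4.89 in virgin P5 and 1.09 and 0.40 in virgin P6. In pregnant mice they were -2.82 and -1.60 in P4, -1.19 and -0.28 in P5 and -2.90 and -1.80 in P6. Every virgin array was above 0 and every pregnant array below it. Aqp5 fell by 3.84 ± 0.55 in P4 (14.3-fold, adjusted p = 0.00982). In P5 it fell by 5.66 ± 0.55 (50.4-fold, adjusted p = 0.000285). In P6 the difference was -3.09 ± 0.55 and did not pass (adjusted p = 0.105). With the replicate block within each condition it passed, at an adjusted p of 0.00195, and Cy5 alone gave -2.77 (adjusted p = 0.0052). The call in P4 was lost without P4_virgin replicate 1 or P4_pregnant replicate 1, where the differences were -3.39 and -3.23 and adjusted p was 0.0813 and 0.0534. In P5 all 6 skeletal muscle markers fell with pregnancy as well, from averages of 3.29 to 3.44 in virgin to -0.38 to 1.02 in pregnant mice, as did 11 of 14 luminal markers, and their part in the fall of Aqp5 was not tested.

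Wfdc18 passed in no comparison by its ratio, while both of its channels moved together over a wide range. The ratios of the 12 wild-type arrays ran from 3.34 to 6.55, with the groups overlapping, and pregnancy differences were -0.32 ± 1.25 in P4, -0.34 ± 1.25 in P5 and 0.00 ± 1.25 in P6 (adjusted p = 0.944, 0.891 and 1). The Cy5 intensities were 3998 and 3039 scanner units in virgin P4, 34889 and 34292 in virgin P5, and 3535 and 2444 in virgin P6. In pregnant mice they were 64386 (saturated) and 124468 in P4, 64386 (saturated) and 222719 in P5, and 7285 and 5348 in P6. By Cy5, virgin P5 was above virgin P4 and P6, and pregnant P4 and P5 were above all virgin arrays. The Cy3 intensities, of the same reference RNA on each array, were 103 and 121 in virgin P4, 483 and 904 in virgin P5 and 85.6 and 102 in virgin P6, and 2579 and 2851, 5897 and 4744, and 256 and 195 in pregnant P4, P5 and P6. The 4 arrays with the brightest sample signal also had the 4 brightest reference signals. With scan as a block the ratio itself turned, to 1.57 in P4 and 1.55 in P5 (adjusted p = 0.0242 and 0.00692).

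**Figure D2:**
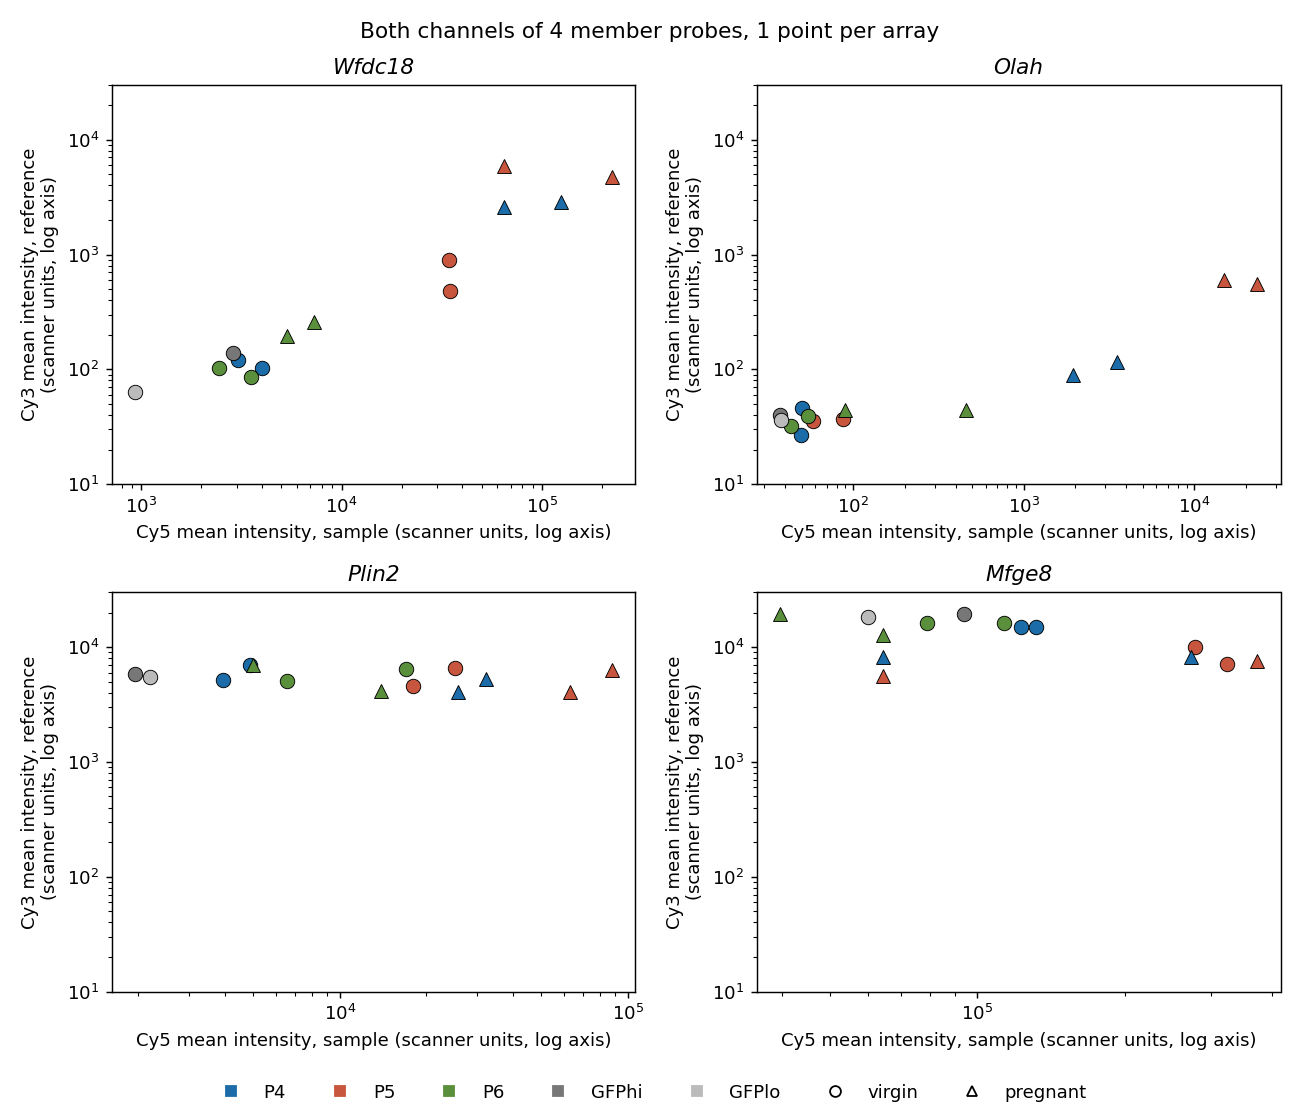
Mean Cy5 intensity of the sample (x axis) against mean Cy3 intensity of the reference (y axis), both in scanner units on log axes, for the probes of Wfdc18, Olah, Plin2 and Mfge8; each point is 1 of 14 arrays, coloured by population, circles for virgin and triangles for pregnant. The reference signal climbs with the sample signal for Wfdc18 (63 to 5897) and Olah (26.8 to 598), stays within 4052 to 6956 for Plin2, and runs from 5597 to 19595 for Mfge8, against its sample signal.

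Over the 14 arrays the normalized Cy3 signal spanned 6.61 on the log2 scale for Wfdc18 (5.52 for its other probe), 4.01 for Olah, 1.75 for Muc1 and 0.63 for Btn1a1 (2.07 for its other probe). It spanned 1.49 for Xdh, 0.99 for Aqp5, 0.49 for Plin2 and 1.61 for Mfge8. Over 27786 probes well above background in Cy3 on all arrays the span had a median of 0.53 and a 99th percentile of 2.01. The correlation of Cy3 with Cy5, over 14 arrays that share the reference, was 0.93 for Wfdc18, 0.95 for Olah, 0.90 for Muc1 and 0.87 for Xdh, and 0.955 for the other Btn1a1 probe. It was 0.475 for the brighter Btn1a1 probe, 0.333 for Aqp5 and 0.195 for Plin2. A ratio over a denominator that moves with the numerator is smaller than the change in Cy5, and the cause of the movement was not tested. The Cy5 channel alone (normexp background, quantile normalization between arrays, chosen after seeing the data) is therefore given beside the ratios below.

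By Cy5 alone, 7 of 8 members passed with pregnancy in P5 (background 32.3%), 5 in P4 (5.99%) and 2 in P6 (0.554%). Wfdc18 was among those that rose in P4 and in P5, by 4.34 ± 0.55 (20.2-fold, adjusted p = 0.00284) and 2.21 ± 0.55 (4.64-fold, adjusted p = 0.0148), the sign of the ratio being the opposite in both. Its spots on the replicate 1 arrays of pregnant P4 and P5 were saturated, so their Cy5 values are lower bounds. The other Wfdc18 probe gave 4.12 and 1.93 (adjusted p = 0.0081 and 0.0499). Olah rose by 4.57 in P4 (adjusted p = 2.15e-05), 7.90 in P5 (adjusted p = 3.28e-07) and 1.68 in P6 (adjusted p = 0.018). Muc1 rose by 0.96 in P4 (adjusted p = 0.0091) and 3.48 in P5 (adjusted p = 2.23e-06). Mfge8 was the member not called in P5, at -0.62 (adjusted p = 0.0607).

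**Figure D3:**
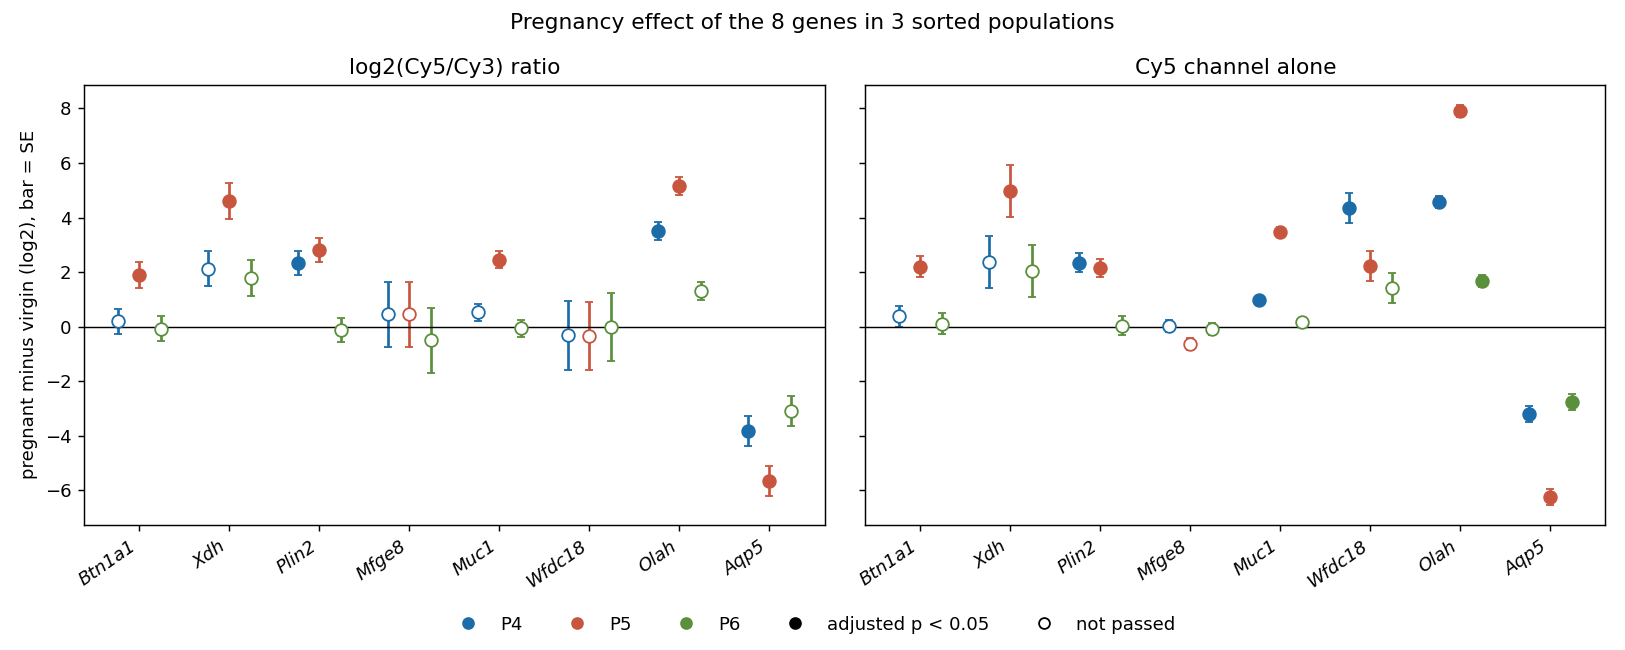
Pregnant minus virgin difference in log2 units (y axis, bars are SE of the fit over 12 arrays) of the 8 genes in P4, P5 and P6, from the ratio (left) and from Cy5 alone (right); filled points passed an adjusted p of 0.05. Wfdc18 sits near 0 in the ratio and at 4.34 and 2.21 by Cy5 in P4 and P5, while Aqp5 is below 0 in every population on both sides. The order of the Olah points holds for these values and not for the scanner's own log ratio.

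The pregnancy effect differed among P4, P5 and P6 for 3 members by the F test, Olah (F = 33.4, adjusted p = 0.00598), Muc1 (F = 17.7, adjusted p = 0.021) and Plin2 (F = 12.8, adjusted p = 0.041), against 7.95% of all genes. For Muc1 the effect in P5 exceeded that in P4 by 1.93 ± 0.44 (adjusted p = 0.0335) and that in P6 by 2.51 ± 0.44 (adjusted p = 0.0127). Olah rose more in P5 than in P6, by 3.86 ± 0.47 (adjusted p = 0.00296), and the P5 and P4 effects differed by 1.67 ± 0.47 (adjusted p = 0.0709). Plin2 rose more in P5 than in P6, by 2.92 ± 0.62 (adjusted p = 0.0264). Between P6 and P4 limma called 0 members, and 2 (Plin2 and Olah) had an unadjusted p under 0.05, as 7.62% of all genes did. With the scanner's own log ratio the F of Olah was 0.0236 (adjusted p = 0.991). Leaving out 1 array ended the Muc1 call in 7 of the 12 fits (adjusted p up to 0.0993) and the Plin2 call in 9 (up to 0.126); those fits that kept Plin2 were without P4_pregnant replicate 1 or 2 or P5_pregnant replicate 1. The shares of all genes were 8.03% for P5 against P4, 7.32% for P5 against P6 and 0.296% for P6 against P4. The replicate block within each condition called 6 of 8 members by the F test, with 27.1% of all genes.

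In virgin mice the populations differed for few members. Aqp5 was lower in P4 than in P5 by 3.29 ± 0.55 (9.78-fold, adjusted p = 0.00559) and higher in P5 than in P6 by 4.18 ± 0.55 (18.1-fold, adjusted p = 0.000924). Plin2 was lower in P4 than in P5, by 1.77 ± 0.44 (3.41-fold, adjusted p = 0.0343), a call lost on leaving out any one of the 6 virgin wild-type arrays, with adjusted p up to 0.201. The Aqp5 call between P4 and P5 was lost without P4_virgin replicate 2 (-2.84, adjusted p = 0.0542). For P4 against P5 that makes 2 of 8 members, both lower in P4, where 11.4% of all genes were called (6.56% higher, 4.8% lower). For P5 against P6 it makes 1 of 8, higher in P5, where 16.1% were called (7.32% higher, 8.82% lower). For P4 against P6 it makes 0 of 8, against 10.3%, and 1 member (Plin2) had an unadjusted p under 0.05 in limma, as 20% of all genes did. By Cy5 alone, 4, 3 and 0 members were called, with 15.1%, 20.8% and 13.2% of all genes. Wfdc18 was then lower in P4 than in P5 by 3.02 (adjusted p = 0.00546) and higher in P5 than in P6 by 3.40 (adjusted p = 0.00195), and Mfge8 was lower in P4 than in P5 by 1.14 (adjusted p = 0.00735) and higher in P5 than in P6 by 1.54 (adjusted p = 0.000897). The skeletal muscle markers also stood high in virgin P5, at 3.29 to 3.44 on average over 6 genes against 0.08 to 0.33 in virgin P4, and 5 of 6 were called. Their part in these differences was not tested.

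In pregnant mice the members were mostly highest in P5. Btn1a1, Xdh, Plin2, Muc1 and Olah were each lower in P4 than in P5, by 2.60, 3.15, 2.23, 2.24 and 1.93 (adjusted p from 0.00135 to 0.00961). The same 5 were higher in P5 than in P6, by 2.85, 2.73, 3.50, 2.64 and 4.05 (adjusted p from 5.43e-05 to 0.0149). Olah was also higher in P4 than in P6, by 2.12 ± 0.34 (adjusted p = 0.00353). With the scanner's own log ratio the Olah differences were -1.43, 1.59 and 0.16 for P4 against P5, P5 against P6 and P4 against P6, and none passed (adjusted p = 0.321, 0.257 and 0.957). Xdh was lost between P4 and P5 without P4_pregnant replicate 2 or P5_pregnant replicate 1 (adjusted p = 0.052 and 0.0552), and between P5 and P6 without P5_pregnant replicate 1 or P6_pregnant replicate 2 (adjusted p = 0.0888 and 0.0647). Plin2 was lost between P4 and P5 without P5_pregnant replicate 2 (-1.76, adjusted p = 0.0572). These are 5, 5 and 1 of 8 members, where 22.6% of all genes were called for P4 against P5 (11.7% higher, 10.9% lower), 26.9% for P5 against P6 (13.7% higher, 13.2% lower) and 12.1% for P4 against P6 (6.2% higher, 5.87% lower). Those comparisons share the pregnant P5 or P6 arrays. By Cy5 alone 6, 8 and 3 members were called, with 32.1%, 35.8% and 16.3% of all genes, and Wfdc18 was higher in P4 than in P6 by 3.30 (adjusted p = 0.00289) and higher in P5 than in P6 by 4.20 (adjusted p = 0.000351). The 8 include Mfge8, at 1.01 (adjusted p = 0.00624), whose spots on scan 3 were saturated at 64386 scanner units in both groups, so the difference of 0.97 within that scan is not a measured one. Within scan 2, where neither spot was saturated, it was 1.05. The differences of the 5 genes between P4 and P5 kept their sign within scan 2, where they ran from -2.65 to -1.75, and within scan 3, where they ran from -3.64 to -2.10.

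Within a condition the replicate number of P4, P5 and P6 went with the scan. Virgin replicate 1 was on scan 1, pregnant replicate 1 on scan 3, and replicate 2 of both conditions on scan 2. A fit with that number as a block within each condition, thus also a block of scan, was made too. It called 2 of 8 members in the pregnancy effect of P6 (Xdh and Aqp5; 4.32% of all genes), 2 for virgin P4 against P6 (Plin2 and Aqp5; 21.9%), 3 for virgin P5 against P6 (Btn1a1, Mfge8 and Aqp5; 29%) and 2 for pregnant P4 against P6 (Plin2 and Olah; 24.4%). In the other comparisons it called 4 members for pregnancy in P4 (18.8%), 6 for pregnancy in P5 (40.8%), 3 for virgin P4 against P5 (24.3%), 6 for pregnant P4 against P5 (41.2%) and 7 for pregnant P5 against P6 (44.3%).

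The design text sets the stem-cell-enriched populations (P4 and GFPhi) against the depleted ones (P5, P6 and GFPlo) in each condition. None of the 8 members was called in virgin mice, in pregnant mice or in the difference between conditions, where 1.62%, 2.49% and 0.0973% of all genes were. At an unadjusted p under 0.05, 0 members passed in each, against 8.26%, 11.2% and 4.24% of all genes. The depleted side joins P5 and P6, which lay far apart for most members in pregnant mice, where the enriched side is P4 alone. Each array counts alike in this fit, so leaving out an array of pregnant P6 shifts the depleted side towards P5. On leaving out P6_pregnant replicate 2, Xdh was called in pregnant mice, lower on the enriched side by 2.56 (adjusted p = 0.0357).

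GFPhi and GFPlo, with 1 array each, allow no test. Their log2 ratios were 0.95 and 0.62 for Btn1a1, -1.70 and -1.29 for Xdh, 3.68 and 3.14 for Mfge8, 0.27 and 0.41 for Muc1, 5.59 and 4.56 for Wfdc18 and 2.46 and 2.10 for Aqp5. For Plin2, GFPhi was at -0.12 and GFPlo at the level of the reference. Neither array reached the level of pregnant P5 in Btn1a1, Xdh, Plin2, Muc1 or Olah, and Aqp5 lay between virgin P5 and virgin P4 in both.

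Over the 8 groups, the order of the ratios put pregnant P5 first for Btn1a1, Xdh, Plin2, Mfge8, Muc1 and Olah. The gap to the next group exceeded the larger of their SDs for Btn1a1 (1.90), Xdh (2.73), Plin2 (2.23), Muc1 (2.24) and Olah (1.93), and not for Mfge8 (0.45). By the quantile-normalized Cy5 signal the Mfge8 order was another, with virgin P5 (17.69 on the log2 scale) and GFPhi (17.5) above pregnant P5 (17.07, with 1 of its 2 spots saturated). Before that normalization the unsaturated pregnant P5 spot was the brightest, at 371793 scanner units. Virgin P5 had 324009 and 278466, and GFPhi 94068. The Mfge8 order by Cy5 thus depended on the normalization. For Olah the order went on with pregnant P4, then pregnant P6, each beyond the spread, and then the virgin groups, which did not differ beyond theirs. Aqp5 had virgin P5 first at 4.92 ± 0.05 (SD, n = 2), ahead of GFPhi, and pregnant P6 last at -2.35 ± 0.78 (SD, n = 2), not beyond the spread from pregnant P4. For Wfdc18 no neighbours in the order differed beyond their spread.

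Lists of related genes were counted with pregnancy in the same fit, beside the 21.4%, 3.75% and 0.186% of all genes called in P5, P4 and P6, and no test compared one list with another. Of 10 other genes of fatty acid synthesis, 9 rose in P5 and 7 in P4, with 1 (Thrsp, a regulator of lipogenesis) in P6, and their median differences were 4.09, 1.81 and 0.33 against 0.04, -0.03 and -0.01 over all genes. In P5 the 4 largest rises were those of Scd1, the stearoyl-CoA desaturase (5.34), Fasn, fatty acid synthase itself (4.81), Acaca, acetyl-CoA carboxylase (4.71), and Slc25a1, the mitochondrial citrate carrier (4.62). Elovl6, an elongase, was the 1 gene of this list that did not pass in P5. Among the genes called in P4, Scd1 (4.33), Thrsp (2.92), Acly (2.40) and Acaca (1.86) led. The difference of Fasn in P4, 2.425, was larger than that of Acly and did not pass (adjusted p = 0.107), while Cy5 alone gave 3.20 (adjusted p = 0.00897). The adipocyte markers of pregnant P4 are given with Plin2 above, and their part in these P4 rises was not tested.

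Of 18 other genes of the globule and of lipid droplets, 8 rose and 3 fell in P5 and 7 rose in P4. In P6 limma called 0 of them by the ratio, and 3 were higher at an unadjusted p under 0.05. By Cy5 alone Cidea (4.99, adjusted p = 2.15e-05) and Fabp3 (4.70, adjusted p = 0.000213) rose in P6, and the others did not pass. In P5 the largest rises were those of Fabp3, a fatty acid binding protein (6.87), Lpl, lipoprotein lipase (6.69), Abcg2, an efflux transporter of milk (5.84), and Cd36, a fatty acid receptor (5.59), while Plin5, Cd9 and Anxa1 fell. In P4 Fabp3 (6.23), Cidea (4.89), Lpl (3.41) and Plin4 (2.80) rose the most. Fabp3 was saturated in Cy5 on 1 of the 2 pregnant P4 arrays. Its Cy5 stood further above pregnant P6 in pregnant P5 (4.81) than in pregnant P4 (2.86), so its rise in P5 may be limited as well. The list's median was 0.99 in P5 and 1.14 in P4. Lpl, Cd36 and Plin4 are genes of adipocytes as well, and the adipocyte markers of P4 are given with Plin2 above. The part of adipocytes in the P4 rises of this list, that of Cidea included, was not tested. Plin5, Cd9, Anxa1, Elovl6 and Jak2 (below) are named after their values were seen.

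Of 13 milk proteins, 5 rose in P5 and 3 in P4 by the ratio, and 10 and 11 did by Cy5 alone. None passed in P6 by the ratio. Cy5 alone, which called 0.554% of all genes there, gave rises in P6 of Wap (6.70), Csn1s2b (6.60), Csn2 (5.33), Glycam1 (4.95), Csn1s1 (4.47), Csn1s2a (4.24) and Cel (1.77). Their adjusted p ran from 1.5e-06 to 0.04, and the other milk proteins did not pass in P6. By the ratio Csn1s2b, a casein, rose by 7.29 in P5 and 6.22 in P4, and Cel, the bile salt-stimulated lipase of milk, by 4.04 and 3.13. In pregnant P4, Csn1s1, Csn1s2b, Csn2, Wap, Glycam1 and Spp1 were saturated in Cy5 on 1 of 2 arrays, and Csn1s2a on 2. Their Cy5 levels there are lower bounds. By Cy5 alone Csn1s2b and Wap stood further above pregnant P6 in pregnant P5 (4.29 and 2.925) than in pregnant P4 (2.82 and 2.27). Replicate 1 of pregnant P5 was on scan 3 too, so their rises in P5 may be limited as well. Of 9 tested WFDC and secreted inhibitor genes, Wap (5.41) and Wfdc3 (3.04) rose in P5. In P4 Wfdc3 (2.30) rose and Slpi, a leukocyte protease inhibitor, fell by 4.76. Of the 10 other aquaporins limma called 0 lower with pregnancy, and 0 were lower at an unadjusted p under 0.05 in any population. Aqp3 rose in P5 (3.97) and P4 (1.46), and Aqp2 (0.99) and Aqp8 (0.87) rose in P5.

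Of the 6 receptors and clearance partners of Mfge8, 1 (Gas6) passed in P5, a share near the 21.4% of all genes, and it fell by 3.20 (adjusted p = 6.89e-05). Of 10 tested regulators of secretory differentiation, Xbp1 (2.83) and Akt1 (1.61) rose in P5 and Prlr, Jak2 and Gata3 fell, the luminal factor Gata3 by 2.99 and Prlr, the prolactin receptor, by 2.01. In the comparison of pregnant P5 with P6, 7 of these 10 were higher in P5, led by Elf5 (5.06), Gata3 (4.08), Xbp1 (2.59) and Stat5a (2.44). Luminal markers went down in pregnant P5, where 11 of 14 fell, led by Areg (by 6.70) and Prom1 (by 4.51). In pregnant P4 the luminal list averaged 1.03 to 1.46 with 1 of 14 below background on both arrays, against 1.66 to 1.98 in virgin P4, and 2 of 14 fell there. The part of luminal cells in the P4 levels of Olah, Plin2 and the milk proteins was not tested.

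**Figure D4:**
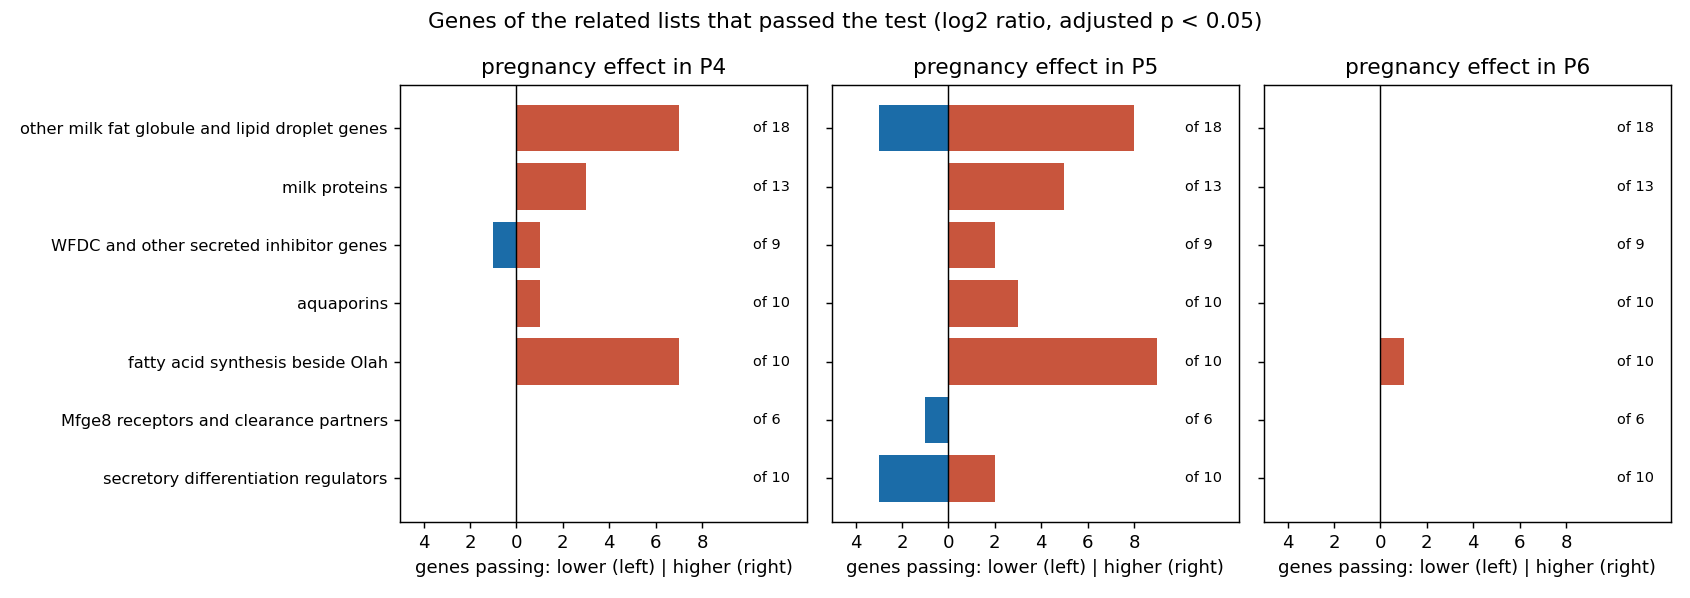
Number of genes (x axis) that passed higher (right) or lower (left) with pregnancy in P4, P5 and P6 for 7 related gene lists (y axis), with the number tested printed beside each bar. Fatty acid synthesis genes have 9 of 10 higher in P5 and 7 of 10 in P4, and P6 has 1 gene in all 7 lists. These counts are by the ratio, and Cy5 alone called more genes in P6, milk proteins among them.

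For each member whose group means spanned at least 2 on the log2 scale, the nearest patterns were sought among 17927 genes, as the root-mean-square difference of centred log2 ratios over the 14 arrays. Btn1a1 was nearest to Pxmp4 (0.28) and Slc9a2 (0.29), and Muc1 to Pxmp4 (0.18) and Orai1 (0.21). Plin2 was nearest to Abhd5 (0.40) and Fam160a2 (0.50), Xdh to Qsox1 (0.53) and Insig1 (0.56), and Olah to Sycn (0.42) and Rac3 (0.46). Mfge8 was nearest to Trf (0.54) and Bglap3 (0.60), and Aqp5 to Crym (0.65) and Areg (0.71). The group means of Wfdc18 spanned 1.04, so no neighbours were sought.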

How the data were processed

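Sorted-cell RNA (Cy5) and reference RNA (Cy3) were hybridised to 14 Agilent 2-colour arrays. The authors' deposited files, quantified with Agilent Feature Extraction 9.5.3.1 per the file headers, hold spot and background intensity on a linear scale, a log10 ratio of Cy5 over Cy3 and flags of 0 or 1. The deposited series table holds log2 ratios that match the scanner's ratios in scale and direction. Intensities were background-corrected (limma 3.58.1 in R 4.3.3, normexp, offset 50, outlying local backgrounds replaced by the array median) and loess-normalized within arrays, leaving out control and outlier spots. A probe was kept where, in at least 1 of the 6 groups with 2 arrays, both arrays had it well above background in Cy5, and the brightest probe stood for its gene (41174 probes, 34805 kept, 23647 genes).

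One limma model over 12 arrays (6 residual degrees of freedom) gave the comparisons of P4, P5 and P6, and one over all 14 arrays (10) gave those of enriched with depleted populations. P-values were adjusted by Benjamini-Hochberg over all genes. Same-numbered arrays deviated together within a condition (r from 0.63 to 0.688 in pregnant and 0.304 to 0.679 in virgin mice, 3 pairs each). They did not across conditions (-0.208 to 0.146, 9 pairs), so the number was also used as a block within conditions. In pregnant mice replicate 1 was all on scan 3 and replicate 2 on scan 2, and in virgin mice they were on scans 1 and 2. Tested on simulated data for the pregnancy effect in P5 (23502 genes), the model recovered 30% of genes changed by 1 on the log2 scale, 78% at 2 and 97% at 4. The simulated noise was independent between arrays, without the shared deviation of same-numbered arrays. These shares need not hold for the real arrays.

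The members and gene lists were chosen with earlier results of these data known. All 8 members are named. Of each other list, up to 4 called genes with the largest difference are named per comparison, and for each member that varied by at least 2 on the log2 scale the 2 genes nearest in pattern. Median Cy5 intensities were 70.9 to 196 scanner units per array, with 66.4% to 86.7% of probes well above background; the number of arrays limits the precision. Alternatives varied the background correction, normalization, filter, probe choice, batch block and arrays used.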

Additional observations from a re-analysis of the deposited data

Results flagged for a closer look

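The pregnancy effect of 3 of the 8 genes differed among P4, P5 and P6 by the test of that difference itself. For Olah, the medium-chain thioesterase, F was 33.4, with rises of 3.50, 5.17 and 1.31 on the log2 scale in P4, P5 and P6. For Muc1, the apical mucin, F was 17.7, with differences of 0.52, 2.45 and -0.05. For Plin2, the droplet coat, F was 12.8, with differences of 2.34, 2.80 and -0.12. The Olah difference was not seen in the scanner software's own log ratio (F = 0.0236).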

How the results depend on the processing

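With 2 arrays in each of 6 groups, the comparisons of P4, P5 and P6 have 6 residual degrees of freedom, and leaving out 1 array changed several calls. Among the members, spots saturated on scan 3 limit Wfdc18, Mfge8 and Plin2 in pregnant mice, and signals near background limit Olah in virgin mice. Saturated spots also limit several milk proteins and Fabp3 in pregnant P4, and may limit Csn1s2b, Wap and Fabp3 in pregnant P5. The replicate number was also tried as a block over all 12 arrays. This replicate block called 3, 6 and 0 members with pregnancy in P4, P5 and P6, as the fit without it did. Of the values of single members under the alternatives, 1590 kept direction and side of the threshold, 117 newly passed, 69 no longer passed, 43 moved and 5 reversed. The reversed values were all of Wfdc18: 4.34 and 2.21 by Cy5 alone and 1.57 and 1.55 with a scan block for pregnancy in P4 and P5, and 3.30 by Cy5 alone for pregnant P4 against P6. The causes were not tested.

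For pregnancy in P4 (3 members), Cy5 alone, a slide block and the fit without scan 3 called 5, a scan block 6, the arrays compared alone 0, and the fits leaving out 1 array 1 to 3. Pregnancy in P5 (6) had 5 to 8 members called over the settings that left out no single array. For pregnancy in P6 (0), median centring, the series table and a scan block called 1, and Cy5 alone and the block within conditions 2. For virgin P4 against P5 (2), Cy5 alone, the fit without scan 3 and the arrays compared alone called 4, and leaving out 1 array 0 to 2. For virgin P4 against P6 (0), a slide block called 3, a scan block and the block within conditions 2, and a random slide block, the fit without scan 3 and the arrays compared alone 1. For virgin P5 against P6 (1), the series table, the mean of a gene's probes and a random slide block called 2, and Cy5 alone, slide, scan and within-condition blocks, the fit without scan 3 and the arrays compared alone 3. For pregnant P4 against P5 (5), median centring and the arrays compared alone called 3, and the highest count over these settings was 7. For pregnant P4 against P6 (1), median centring, slide, scan, random slide and within-condition blocks called 2, Cy5 alone and the fit without scan 3 called 3, the scanner log ratio and the arrays compared alone 0, and leaving out 1 array 1 to 2. For pregnant P5 against P6 (5), Cy5 alone called 8, and the lowest count over these settings was 4. For the difference among populations (3), slide, scan, random slide and within-condition blocks and the fit without scan 3 called 6, and leaving out 1 array 1 to 3. For enriched against depleted in pregnant mice (0), leaving out 1 array called 0 to 1.

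Median centring moved the median of all genes by up to 0.319, the scanner log ratio by 0.118 and the series table by 0.119. It took the share of higher genes among those called from 39.8% to 56.3% for pregnancy in P4, from 50.1% to 27.8% in P5, from 57.7% to 42.9% for virgin P4 against P5, from 51.6% to 77.4% for pregnant P4 against P5, from 51.4% to 69.9% for pregnant P4 against P6, and from 69.6% to 92.3% for the difference of enriched and depleted cells between conditions. For pregnancy in P6 that share was 25%, against 38.3% with ratios scaled to one spread, 35.5% in the series table and 47.3% by Cy5 alone. Cy5 alone also gave 46.5% for virgin P4 against P5, 55.5% in place of 45.3% for virgin P5 against P6 and 84.6% for the difference between conditions. Over the settings that left out no single array, the genes called for pregnancy ran from 0 to 4450 in P4 (886 in the report), from 2420 to 9636 in P5 (5054) and from 0 to 1021 in P6 (44), lowest with the arrays compared alone in P4 and P6 and with median centring in P5, and highest with the block within conditions. Quantile normalization of average intensities leaves ratios as they are and was not run for them. Scaling to one spread and Cy5 alone were chosen after seeing the data.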
